A study of Homo sapiens with 12 samples.

Results

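The genes described here set how much cholesterol a cell makes, takes up and exports: SREBF1, SREBF2, SCAP, INSIG1, STARD4, TMEM97, ABCA1 and MYLIP. They were chosen by name, as probe sets whose platform annotation carries 1 of these 8 symbols. Of the 8 genes, 7 were found, each on 1 probe set, among 17687 named symbols, and MYLIP, a ubiquitin ligase for lipoprotein receptors, is not analysed here. RNA came from 2 human lung adenocarcinoma cell lines with mutated epidermal growth factor receptor, H1975 and PC-9, measured on 12 whole-transcript arrays in 4 groups of 3. In each line the tolerant group (OR in the labels) held cells that had survived 0.5 µM osimertinib, an inhibitor of that receptor, for 1 week and were collected on day 8. The other group (OR+SK100) held surviving cells treated for 48 h with SK-216 at 100 µM; the compound is given by that code alone. By those texts all 4 groups had met osimertinib, and whether it was kept during SK-216 is not stated. For the SK-216 groups the labels conflict: 1 field (source name) describes naive cells as the starting point, and the others describe tolerant ones. No group of tolerant cells kept 48 h longer without SK-216 is described, so the compound and the extra time cannot be told apart. Both lines are established cultures, and the labels do not tell whether the 3 arrays of a group are separate cultures, so a p-value covers only array-to-array spread that may be technical.

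Sterol regulatory element binding proteins (SREBPs), the products of SREBF1 and SREBF2, are made as membrane proteins of the endoplasmic reticulum. When sterols are scarce, SCAP escorts them to the Golgi apparatus, where proteases release the part that enters the nucleus and turns on genes of cholesterol and fatty acid synthesis and of lipoprotein uptake. When sterols are plentiful, INSIG proteins hold SCAP back. Excess cholesterol gives oxysterols, ligands of the liver X receptors (LXRs), which turn on the exporter ABCA1, MYLIP and SREBF1. Targets of the SREBPs and of the LXRs are therefore known to report opposite sterol states of a cell.

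The promoters of the genes that the comparisons turn on differ in the short sequences they carry. The windows shown are the 250 bases before the RefSeq start in GRCh38.p14, 5′ to 3′ on the gene's strand, and capitals mark a sterol regulatory element (TCACCCCAC), a CCAAT box or an LXR-type direct repeat with 4 spacer bases (DR4), searched on both strands. SREBF2 lies at chr22:41832855-41833104 on the plus strand, INSIG1 at chr7:155297628-155297877 on the plus strand, TMEM97 at chr17:28318950-28319199 on the plus strand and ABCA1 at chr9:104928156-104928405 on the minus strand. They are shown because INSIG1, TMEM97 and ABCA1 are the members that passed a test for SK-216, and SREBF2 encodes the regulator itself.
SREBF2: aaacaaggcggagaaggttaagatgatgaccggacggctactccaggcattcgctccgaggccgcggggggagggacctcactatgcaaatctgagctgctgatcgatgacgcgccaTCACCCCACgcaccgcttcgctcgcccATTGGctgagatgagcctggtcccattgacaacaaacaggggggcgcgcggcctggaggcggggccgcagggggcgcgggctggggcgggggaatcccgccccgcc
INSIG1: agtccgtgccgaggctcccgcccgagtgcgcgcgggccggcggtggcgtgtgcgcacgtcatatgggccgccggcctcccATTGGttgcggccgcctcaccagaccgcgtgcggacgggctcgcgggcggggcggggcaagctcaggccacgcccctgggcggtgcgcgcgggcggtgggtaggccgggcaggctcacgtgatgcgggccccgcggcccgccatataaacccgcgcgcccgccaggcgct
TMEM97: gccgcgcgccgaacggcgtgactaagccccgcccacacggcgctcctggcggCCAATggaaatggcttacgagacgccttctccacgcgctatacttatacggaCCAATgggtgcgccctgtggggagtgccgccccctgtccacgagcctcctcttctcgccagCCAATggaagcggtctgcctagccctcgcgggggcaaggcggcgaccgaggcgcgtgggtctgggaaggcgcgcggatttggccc
ABCA1: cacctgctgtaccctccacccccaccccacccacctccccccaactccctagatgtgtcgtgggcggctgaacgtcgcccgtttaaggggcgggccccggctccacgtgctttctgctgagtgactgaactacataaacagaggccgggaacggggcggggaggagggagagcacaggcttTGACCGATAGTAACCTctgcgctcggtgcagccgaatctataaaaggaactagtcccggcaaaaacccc

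The SREBF2 window held the sterol regulatory element, from 133 to 125 bases before the start, followed by a CCAAT box on the opposite strand, the site of the factor NF-Y, which is known to work beside SREBPs. The element was present in 0.362% of all 35116 promoter windows of that length. TMEM97 held 3 CCAAT boxes, STARD4 2 and INSIG1 1, and none of these 3 windows held the element in these letters. A CCAAT box was found in 32.0% of all windows. The direct repeat was found in the ABCA1 window, from 69 to 54 bases before the start on the opposite strand, and in 0.0797% of all windows. Neither the SREBF1 nor the SCAP window held any of the 3 motifs, and any other start of these genes was not searched. Counted per gene, 13 of 15 measured cholesterol synthesis genes with a window held a CCAAT box, 6 of 8 other SREBP targets and 3 of 10 LXR targets, beside 37.0% of all genes. The sterol regulatory element in these letters was in 0 of those 15 cholesterol synthesis genes, in 1 of the 8 other SREBP targets, SREBF2, and in 0 of the 10 LXR targets, beside 0.45% of all genes. These are matches of letters, and binding was not measured.

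SREBF2 and SREBF1 also each carry a microRNA gene, MIR33A and MIR33B, within their span. The mature strands miR-33a-5p (chr22:41900949-41900969, plus strand) and miR-33b-5p (chr17:17813897-17813916, minus strand) are known to repress ABCA1, and they are shown with the seed, bases 2 to 8, in capitals. Both share 1 seed, and neither was measured here.
miR-33a-5p: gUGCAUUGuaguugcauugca
miR-33b-5p: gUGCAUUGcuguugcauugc

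Signals are log2 values, in which 1 unit is a doubling, and levels are compared only within a gene. Array medians lay between 6.56 and 6.62, and within-group correlations across probe sets were 0.993 to 0.995. The 349 olfactory receptor probe sets, which stand for unexpressed genes, centred on 3.61, with 95% of their values up to 5.14. In each array the 7 members lay above that level, with the lowest value, 5.96, in ABCA1. Epithelial markers had group means between 4.21 and 16.7, the lowest being ESRP1, a splicing factor, in tolerant H1975. Hepatocyte markers had group means of at most 5.60. Leukocyte, endothelial and fibroblast lists had 2 of 6, 3 of 5 and 3 of 6 members at or below that level in all groups. Their highest group means were 12.26 (CD68), 7.47 (CDH5) and 9.02 (COL1A2).

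**Figure D1:**
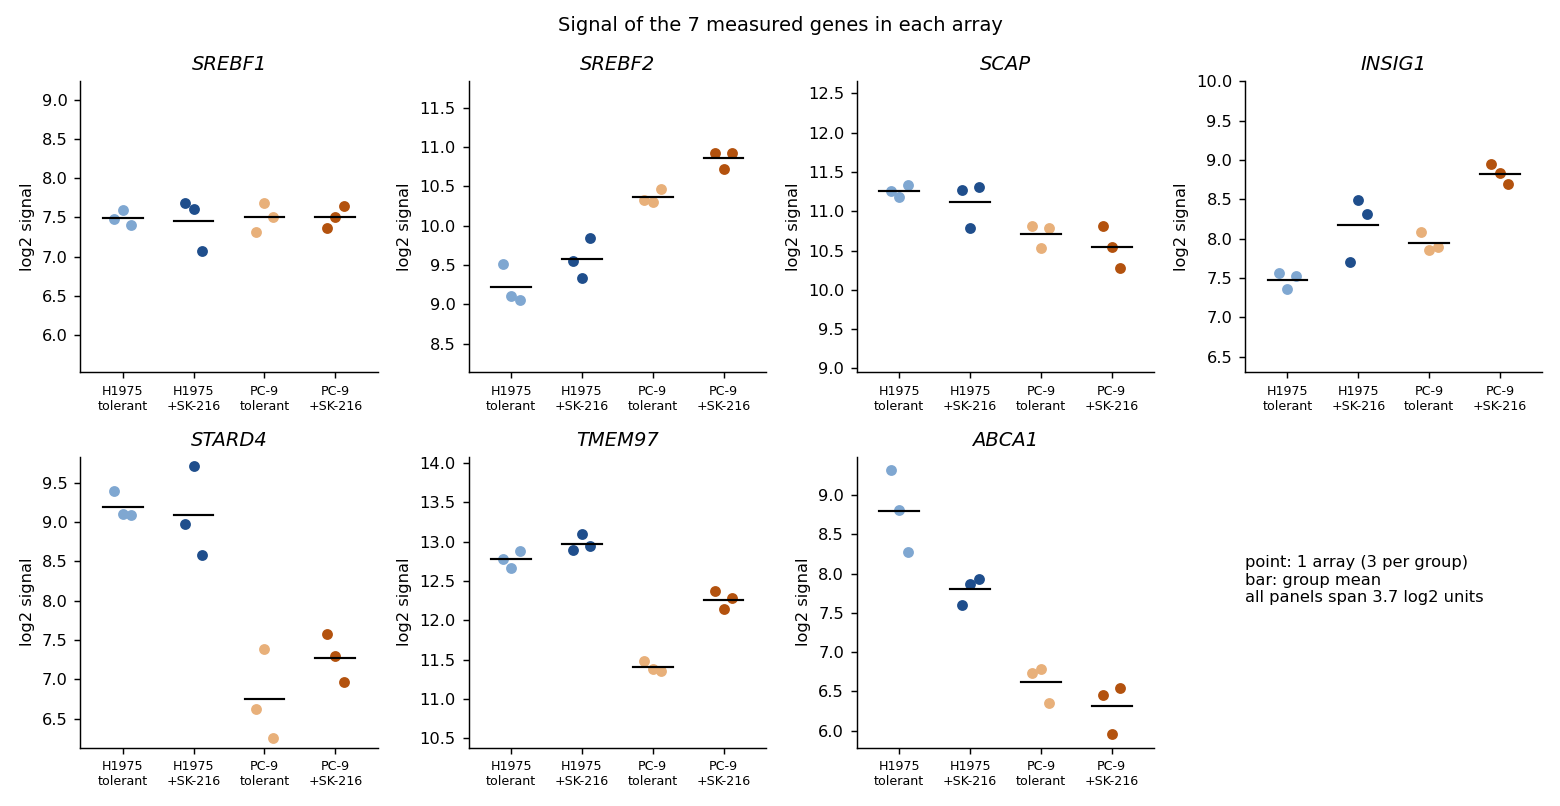
Log2 signal (vertical axis) of the 7 measured genes in each of the 12 arrays, by group (horizontal axis). Points are arrays and bars are means of 3; INSIG1 lies higher with SK-216 in both lines, TMEM97 in PC-9 lies between 11.36 and 11.48 in tolerant arrays and between 12.14 and 12.37 with SK-216, and ABCA1 lies lower with SK-216 in H1975.

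INSIG1, the sterol-sensing anchor that holds SCAP in the endoplasmic reticulum and is itself a classical SREBP target, rose after SK-216 in both lines. In H1975 its log2 signal was 7.56, 7.36 and 7.52 in tolerant arrays and 7.70, 8.49 and 8.32 with SK-216. In PC-9 it was 8.08, 7.86 and 7.90 in tolerant arrays and 8.95, 8.83 and 8.70 with SK-216. The groups did not overlap in either line, as was so upwards for 8.95% of all probe sets in H1975 and 8.21% in PC-9, and the first SK-216 array of H1975 lay only just above the tolerant ones. The log2 fold change was 0.69 ± 0.19 in H1975 (standard error of the fit, n = 3 per group, limma adjusted p = 0.0366), a 1.61-fold rise, and 0.88 ± 0.19 in PC-9 (limma adjusted p = 0.0295), a 1.84-fold rise. Both calls lie near the threshold. Leaving out 1 of the 12 arrays ended the H1975 call in 5 fits, with limma adjusted p up to 0.185 without SK-216 array 2, and the PC-9 call in 6 fits, up to 0.147 without SK-216 array 1. Without the variance trend the limma adjusted p was 0.0759 and 0.122. The rise was 0.19 ± 0.26 larger in PC-9, which did not pass (95% interval -0.36 to 0.74, limma adjusted p = 0.837). As background, 3.80% of all probe sets passed in H1975 (1.44% higher, 2.35% lower) and 0.443% in PC-9 (0.373% higher, 0.0699% lower). INSIG2, the paralog that is not a classical SREBP target, was at 0.23 ± 0.13 in H1975 and 0.16 ± 0.13 in PC-9, neither past the test.

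TMEM97, the sigma-2 receptor, a sterol-responsive membrane protein that binds the lysosomal cholesterol transporter NPC1, rose in PC-9. Its log2 signal was 11.48, 11.38 and 11.36 in tolerant PC-9 arrays and 12.37, 12.14 and 12.28 with SK-216. The groups were far apart for their spread, and the log2 fold change was 0.86 ± 0.10 (limma adjusted p = 3.03e-05), a 1.81-fold rise that passed whichever of the 12 arrays was left out. In H1975 its signal was 12.78, 12.67 and 12.88 in tolerant arrays and 12.89, 13.10 and 12.94 with SK-216. Those groups touched without overlapping, where 8.95% of all probe sets did not overlap upwards, and the change of 0.20 ± 0.10 did not pass (limma adjusted p = 0.378). TMEM97 was the 1 member of 7 whose response differed between the lines in the test of that difference: the change was 0.66 ± 0.14 larger in PC-9 (limma adjusted p = 0.0146), where 1.42% of probe sets passed (1.09% with a more positive change in PC-9, 0.331% with a more negative one). That call was lost in 2 of 12 fits with 1 array left out, with limma adjusted p = 0.0507 without H1975 SK-216 array 1 and 0.0574 without PC-9 SK-216 array 1, and in the fit without the variance trend (limma adjusted p = 0.146).

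SREBF2, the regulator that prefers cholesterol genes and carries the element in its own promoter, did not pass in either line. In PC-9 its log2 signal was 10.33, 10.30 and 10.47 in tolerant arrays and 10.93, 10.72 and 10.92 with SK-216. These groups did not overlap, as was so upwards for 8.21% of all probe sets in PC-9, and the difference was 0.49 ± 0.15 (limma adjusted p = 0.19). In H1975 the arrays overlapped, at 9.51, 9.11 and 9.05 against 9.55, 9.33 and 9.85, and the difference was 0.35 ± 0.15 (limma adjusted p = 0.257). The 95% intervals, 0.04 to 0.66 in H1975 and 0.18 to 0.80 in PC-9, are not adjusted for the number of probe sets tested.

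SREBF1, whose products prefer fatty acid genes and which is also an LXR target, lay between 7.08 and 7.69 in all 12 arrays. Its change was -0.03 ± 0.19 in H1975 and 0.00 ± 0.19 in PC-9, with 95% intervals of -0.43 to 0.36 and -0.39 to 0.40. A change of 1 unit lies outside both intervals. One probe set covers the gene and cannot separate its isoforms, of which only SREBP-1c is known as the LXR-driven form. SCAP, the escort, lay between 10.28 and 11.33, and its change was -0.14 ± 0.15 in H1975 and -0.16 ± 0.15 in PC-9, neither past the test.

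STARD4, a soluble carrier of cholesterol between membranes and a known SREBP target, did not pass in either line. In PC-9 its log2 signal was 6.62, 7.39 and 6.25 in tolerant arrays and 7.58, 7.29 and 6.96 with SK-216, so the second tolerant array lay among the SK-216 arrays. The difference was 0.52 ± 0.26, with a 95% interval of -0.02 to 1.07 (limma adjusted p = 0.475). In H1975 the arrays overlapped widely, at 9.40, 9.10 and 9.09 against 8.98, 9.71 and 8.58, with a difference of -0.11 ± 0.26.

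ABCA1, which moves cholesterol out of the cell onto apolipoproteins, fell in H1975. Its log2 signal was 9.31, 8.81 and 8.27 in tolerant arrays and 7.60, 7.87 and 7.93 with SK-216. The groups did not overlap, as was so downwards for 9.56% of all probe sets, and the tolerant arrays were spread more widely than those with SK-216. The log2 fold change was -0.997 ± 0.23 (limma adjusted p = 0.0121), to 0.501 of the tolerant level. This call was lost in 2 of 12 fits with 1 array left out, with limma adjusted p = 0.123 and a change of -0.74 without tolerant array 1, and limma adjusted p = 0.072 without SK-216 array 1. In PC-9 the arrays overlapped, at 6.74, 6.78 and 6.36 against 6.45, 5.96 and 6.54, and the difference of -0.31 ± 0.23 did not pass (limma adjusted p = 0.675). The changes of the lines differed by 0.69 ± 0.33, which did not pass either (limma adjusted p = 0.386), so the lines are not shown to differ.

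**Figure D2:**
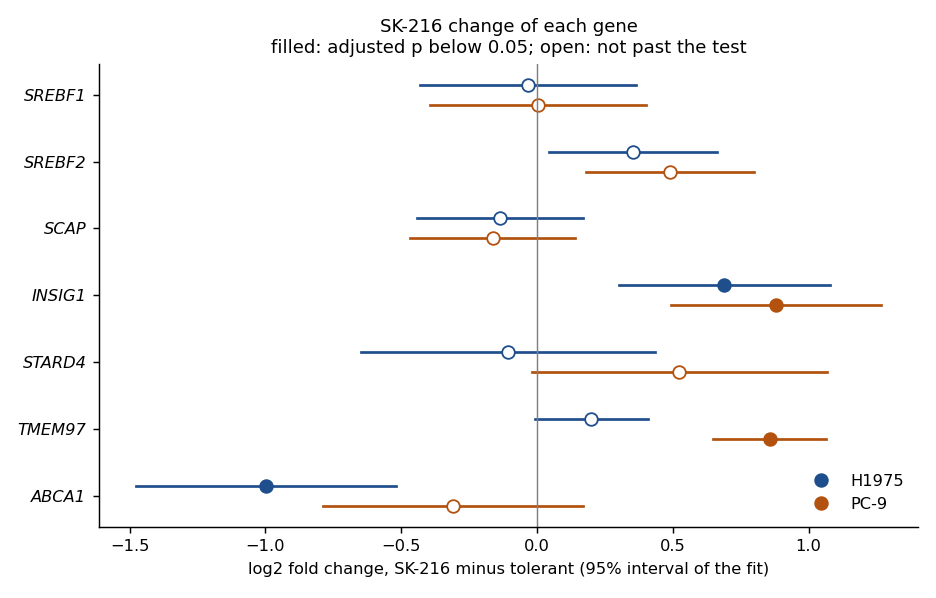
Log2 fold change with SK-216 (horizontal axis) of the 7 genes (vertical axis), with the 95% interval of the fit, in H1975 and PC-9. Filled points passed: INSIG1 at 0.69 and 0.88 in the 2 lines, TMEM97 at 0.86 in PC-9 and ABCA1 at -0.997 in H1975; open points did not pass.

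Before SK-216 the lines differed in 6 of the 7 members, in a comparison where 44.0% of all probe sets passed (21.3% higher in PC-9, 22.7% lower). Tolerant PC-9 had more SREBF2, at 10.37 ± 0.09 against 9.22 ± 0.25 (mean log2 signal ± SD, n = 3), a difference of 1.14 ± 0.15 on the log2 scale (limma adjusted p = 5.90e-07). It had less STARD4, with a difference of -2.44 ± 0.26, less ABCA1, -2.17 ± 0.23, less TMEM97, -1.37 ± 0.10, and less SCAP, -0.55 ± 0.15. INSIG1 was higher in PC-9 by 0.47 ± 0.19 (limma adjusted p = 0.0465), a call lost in 9 of 12 fits with 1 array left out. SREBF1 did not pass, with a difference of 0.01 ± 0.19. Over the 4 groups, ABCA1 ran from PC-9 with SK-216, the lowest, through tolerant PC-9 and H1975 with SK-216 to tolerant H1975, and the 2 PC-9 groups did not differ beyond their spread. TMEM97 ran from tolerant PC-9 to PC-9 with SK-216 and then tolerant H1975 and H1975 with SK-216, so its PC-9 level stayed under that of H1975 after the rise. For SREBF2 both PC-9 groups lay above both H1975 groups, and for STARD4 and SCAP both lay below, with 1 SK-216 array of H1975 in the PC-9 range for SCAP.

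The machinery around these genes was described with a list of 18 genes of SREBP sensing, cleavage and degradation, of which 15 were measured. In H1975 the median was 0.11 beside 0.01 over all probe sets, of which 1.44% rose and 2.35% fell. Of the 15 genes, 2 rose and 0 fell. They were INSIG1 and PAQR3, a Golgi protein that anchors SCAP and SREBP there, at 0.72 ± 0.12 (limma adjusted p = 0.00081). In PC-9, 1 of the 15 rose, INSIG1, and 0 fell, with a median of 0.09 beside -0.0033 over all probe sets, of which 0.373% rose. PAQR3 was at 0.13 ± 0.12 in PC-9, and its difference between lines, -0.58 ± 0.18, did not pass (limma adjusted p = 0.108). RNF145, a ligase that acts on SCAP, was at -0.05 ± 0.14 in H1975 and -0.07 ± 0.14 in PC-9.

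SREBP targets and LXR targets were then set side by side. Of 17 measured cholesterol synthesis enzymes, 6 rose in H1975 and 13 in PC-9, with 0 falls in either, beside 1.44% and 0.373% of all probe sets that rose, and medians of 0.28 and 1.01. With 1 array left out, 2 of the 6 H1975 calls were lost in some of 12 fits, ACAT2 in 6 (highest limma adjusted p = 0.199) and SQLE in 2 (0.0681), as was NSDHL in PC-9 in 4 (0.214). MSMO1, a sterol monooxygenase, rose by 0.81 ± 0.09 in H1975 and 0.98 ± 0.09 in PC-9, and DHCR7, which makes cholesterol in the last step of its route, by 0.71 ± 0.10 and 1.01 ± 0.10. Of 9 measured SREBP targets of uptake, trafficking and feedback, 1 rose in H1975, INSIG1, and 2 in PC-9, INSIG1 and TMEM97, with medians of 0.24 and 0.48. NPC1, which releases cholesterol from lysosomes, was at 0.43 ± 0.14 in H1975 (limma adjusted p = 0.0964) and 0.32 ± 0.14 in PC-9 (limma adjusted p = 0.4). Of 13 measured fatty acid synthesis targets, 1 rose in H1975, SCD, stearoyl-CoA desaturase, at 0.83 ± 0.16, and 3 rose in PC-9, SCD at 2.32 ± 0.16, the desaturase FADS2 at 0.71 ± 0.11 and the elongase ELOVL5 at 0.42 ± 0.08. The ELOVL5 call was lost in 3 of 12 fits with 1 array left out (highest limma adjusted p = 0.127).

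No listed LXR target was called higher in either line. SCD was counted only among the SREBP targets, so the contrast depends on how genes were assigned to lists. Of 13 measured members, 0 rose and 2 fell in H1975, beside 1.44% and 2.35% of all probe sets. In PC-9, 0 passed by limma (1 at an unadjusted p under 0.05), beside 0.443% of all probe sets. At these shares, 0 rises among 13 genes says little about the list. Medians were -0.03 in H1975 and -0.04 in PC-9. The other LXR target that fell in H1975 was LPCAT3, a phospholipid remodelling enzyme, whose group means were 10.69 ± 0.13 and 9.84 ± 0.04 (SD, n = 3). Its change of -0.85 ± 0.14 (limma adjusted p = 0.000375) passed whichever of the 12 arrays was left out. In PC-9 LPCAT3 was at -0.19 ± 0.14, and its difference between lines, 0.66 ± 0.20, did not pass (limma adjusted p = 0.0961). PLTP, a phospholipid transfer protein, was at -0.02 ± 0.13 in H1975 and 0.19 ± 0.13 in PC-9, and SMPDL3A, a phosphodiesterase, at -0.47 ± 0.24 and -0.07 ± 0.24. Of the 13, 9 had a mean over all arrays above that olfactory level, and ABCG1, the other main exporter, was below it at 4.04. Among receptors, NR1H3, which encodes LXR alpha, was at 0.35 ± 0.22 in H1975 and -0.10 ± 0.22 in PC-9, and RXRB, a partner of the LXRs, at 0.14 ± 0.12 and 0.17 ± 0.12.

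**Figure D3:**
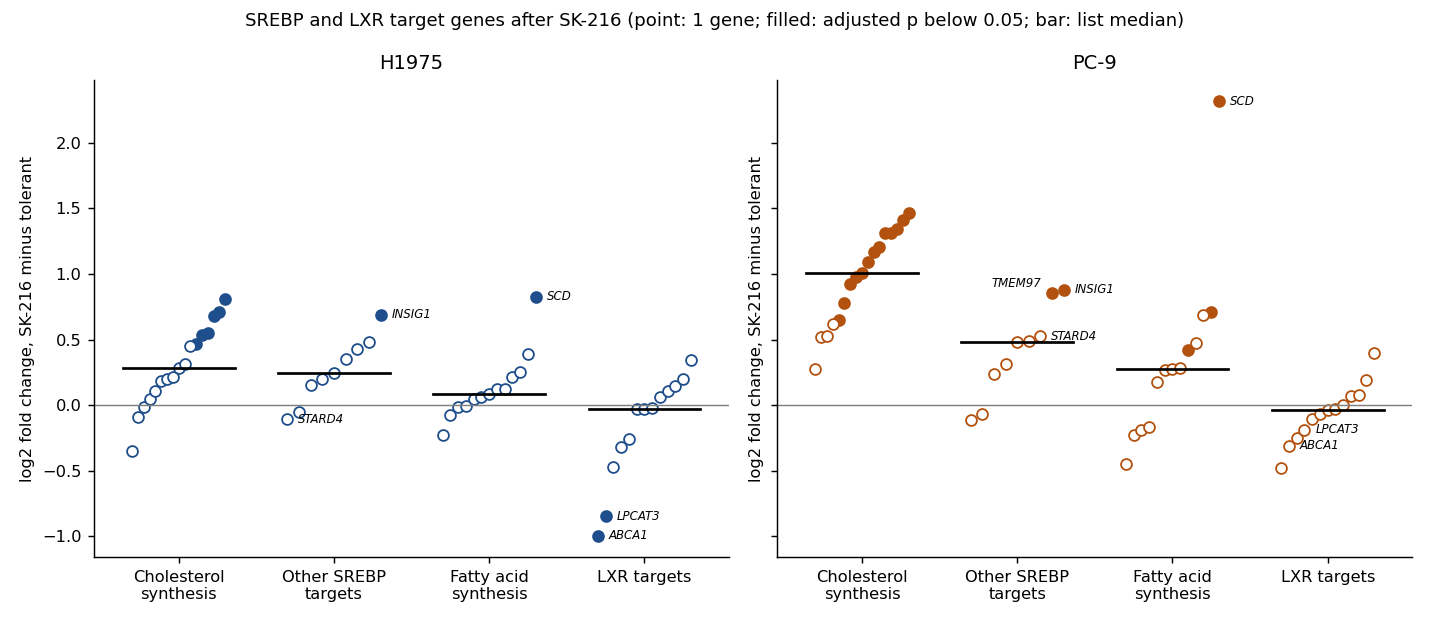
Log2 fold change with SK-216 (vertical axis) of each gene of 3 SREBP target lists and of the LXR targets (horizontal axis), in H1975 and PC-9; filled points passed the test and bars are list medians. In PC-9, 13 of 17 cholesterol synthesis genes are filled and 0 of 13 LXR targets, where 0.443% of all probe sets passed. In H1975 the 2 filled LXR targets, ABCA1 and LPCAT3, lie below 0.

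Seen array by array, the median change of the 26 SREBP targets of cholesterol synthesis, uptake and feedback, against the tolerant mean of the line, was 0.29, 0.39 and 0.20 in the H1975 SK-216 arrays. It was 0.89, 0.81 and 0.76 in those of PC-9, so each SK-216 array lay above all tolerant arrays of its line, which ran from -0.05 to 0.04. The median of the 13 LXR targets was 0.02, 0.05 and -0.22 in H1975 and -0.14, 0.01 and 0.00 in PC-9. These medians are given without a test, since the lists were chosen with earlier results of these data known. For single genes, the difference between lines passed and was larger in PC-9 for 8 of the 26 SREBP targets and for 0 of the 13 LXR targets, beside 1.09% of all probe sets.

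**Figure D4:**
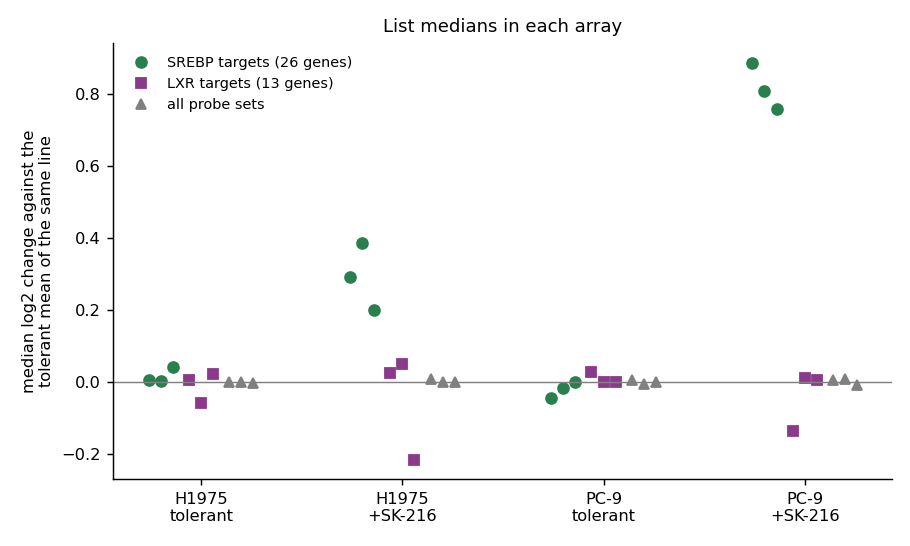
Median log2 change against the tolerant mean of the same line (vertical axis) of 26 SREBP targets, 13 LXR targets and all probe sets, in each array by group (horizontal axis). SREBP targets lie between 0.20 and 0.39 in the H1975 SK-216 arrays and between 0.76 and 0.89 in those of PC-9, while LXR targets lie between -0.22 and 0.05.

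No gene of lipoprotein uptake other than those above was called higher, where 1.44% of all probe sets rose in H1975 and 0.373% in PC-9. Of 6 measured, 2 fell in H1975, beside 2.35% of all probe sets. They were LRP1, a large endocytic receptor, at -0.58 ± 0.15 (limma adjusted p = 0.0258), and LRPAP1, its chaperone, at -0.39 ± 0.11 (limma adjusted p = 0.0369). Leaving out single arrays lost these calls in 4 and 7 fits respectively (highest limma adjusted p = 0.163 and 0.166), and 0 of 6 passed in PC-9, where 0 had an unadjusted p under 0.05 by limma either. Of 14 transport and lysosomal release genes, TMEM97 in PC-9 was the 1 call in either line, with 2 and 3 genes at an unadjusted p under 0.05 by limma in H1975 and PC-9. In the storage list of 4, PLIN2, the coat protein of lipid droplets, rose in H1975 by 1.58 ± 0.21 (limma adjusted p = 3.74e-05). In PC-9 it lay within the olfactory range, at 5.07 ± 0.28 in tolerant arrays and 4.92 ± 0.63 with SK-216 (mean log2 signal ± SD, n = 3), where a change cannot be measured. SOAT1, which esterifies cholesterol, was at 0.09 in both lines. Of 6 oxysterol and bile acid enzymes 0 passed in either line by limma, with medians of -0.31 in H1975, where 4 had an unadjusted p under 0.05, and -0.09 in PC-9, where 0 had. Of those 4, CYP7A1 and CH25H lay below the olfactory level of 5.14 in all groups, CYP27A1 was at -0.46 ± 0.22 and CYP7B1 at 0.45 ± 0.19. In H1975, where ABCA1 and LPCAT3 fell, COL1A1, 1 of the 6 fibroblast markers, also fell, at -0.96 ± 0.21, and CDH1, an epithelial cadherin, at -1.55 ± 0.13. Of the 7 epithelial markers 3 rose and 2 fell there, and ESRP1, among those that rose, started below the olfactory level at 4.21. Of the leukocyte, endothelial and hepatocyte markers 0 passed there, and 0 markers of any list passed in PC-9. Their part in the result was not tested.

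The genes most like INSIG1 and ABCA1 over the 12 arrays, after each line's mean was taken off, were listed among 10335 named probe sets with a mean of at least 6. For INSIG1 they were DHCR7, a cholesterol synthesis enzyme (Pearson r = 0.939), CHAC1, a glutathione-degrading enzyme (0.927), ZNF277 (0.904), THAP4 (0.901) and USP1, a deubiquitinase (0.898). For ABCA1 they were ADAM10, a membrane protease (0.929), ESYT2, a membrane tether (0.908), YAP1, a transcriptional co-activator (0.903), FNBP1 (0.899) and AGFG2 (0.895). These values describe the highest of many pairs, and all arrays of a group share their treatment. ADAM10, YAP1 and AGFG2 also fell in H1975, with changes of -0.35, -0.37 and -0.71, and none of the 5 passed in PC-9. DHCR7 and CHAC1 rose in both lines, CHAC1 by 0.81 in H1975 and 0.77 in PC-9.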

How the data were processed

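The authors deposited 1 log2 signal per probe set for each of 12 arrays. The only tool named, per the submitters' notes on processing, is Transcriptome Analysis Console, with its version, normalization, summarisation and build not given in the sources used here. Base 2, log2, was read from the deposited values, which ran from 2.19 to 18.61. No further normalization or filter was applied. Of 21448 probe sets, 17709 carried 1 symbol from the platform annotation, updated by Entrez identifier through RefSeq (GRCh38.p14), and 3739 were unnamed.

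limma 3.58.1 (R 4.3.3) fitted the 4 group means over the 12 arrays together (eBayes with a variance trend, 8 residual degrees of freedom). Tests were two-sided, adjusted by Benjamini-Hochberg over all probe sets, with a call at adjusted p below 0.05. The fit was tested on simulated data. Members and lists were chosen with earlier results of these data known, so lists are described by counts and medians. Named genes were the members, up to 5 called genes per list and comparison, markers, and the 5 most like INSIG1 and ABCA1. A few others that did not pass were chosen after their values were seen. Precision is set by having 3 arrays per group. Promoter and microRNA sequences are from RefSeq, which had a window for 8 of 8 listed genes. Alternatives were other variance models, normalizations, filters, blocks and leaving out each array. Figures were drawn with matplotlib 3.10.9.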

Additional observations from a re-analysis of the deposited data

Results flagged for a closer look

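For 11 genes of the lipid lists, cell type markers aside, the difference between the changes of the lines passed (PC-9 minus H1975, log2 fold change ± standard error, limma, n = 3 per group). The difference was above 0 for 10 SREBP targets: LSS by 1.27 ± 0.18 (adjusted p = 0.00016), SCD by 1.49 ± 0.23 (0.000737), FDPS by 1.06 ± 0.17 (0.000963), CYP51A1 by 0.85 ± 0.14 (0.00115), HMGCS1 by 0.76 ± 0.14 (0.00455) and IDI1 by 1.13 ± 0.23 (0.0107). FADS2 by 0.72 ± 0.15 (0.013), TMEM97 by 0.66 ± 0.14 (0.0146), ACAT2 by 0.93 ± 0.21 (0.0217) and MVD by 1.23 ± 0.29 (0.0251) passed too, but without single arrays they were lost in 2, 2, 4 and 5 of 12 fits. LSS was at -0.35 ± 0.12 in H1975, which did not pass (limma adjusted p = 0.142), and at 0.92 ± 0.12 in PC-9. Its difference thus joins a rise in PC-9 with a lower estimate in H1975. For PLIN2 the fitted difference was -1.72 ± 0.30 (adjusted p = 0.00224), but both PC-9 means, 5.07 and 4.92, lay below 5.14, the level under which 95% of olfactory receptor values fell, where a change cannot be measured, so no opposite response is shown. Among the 7 epithelial markers the difference passed for CDH1 (1.74 ± 0.19), KRT18 (0.52 ± 0.11), KRT8 (0.34 ± 0.09) and ESRP1 (-1.15 ± 0.29). For ESRP1 the tolerant H1975 mean, 4.21, also lay below 5.14, and the mean with SK-216 was 5.41, so the size of its difference is uncertain.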

How the results depend on the processing

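TMEM97 in PC-9 passed in all 23 alternatives. The INSIG1 calls were lost in the most: 10 of 23 alternatives in H1975, 10 of 23 in PC-9 and 14 of 22 between tolerant lines. Over all members and comparisons, 274 of 294 values under settings other than leaving out an array kept direction and side of the threshold, and 292 of 336 when 1 array was left out; no value gained a call. Without the variance trend the number of probe sets called was 448 in H1975, 18 in PC-9 (all higher) and 99 for the difference, and at adjusted p below 0.01 it was 422, 33 and 136. Leaving out 1 array gave 545 to 918 calls in H1975, 30 to 104 in PC-9, the lowest without SK-216 array 2, and a difference between the SREBP and LXR medians of 0.22 to 0.40 in H1975, beside 0.29. With quantile normalization 51 probe sets rose and 18 fell in PC-9, and 199 and 107 for the difference, beside 80 and 15, and 233 and 71. Same-numbered arrays did not deviate together over all probe sets (r from -0.0912 to 0.0295). No pairing by number was seen, though so few arrays cannot exclude it. With the replicate block within each line 58 passed in PC-9, and INSIG1 had limma adjusted p = 0.0606 in H1975 and 0.0715 in PC-9. Signs turned only for values near 0. SREBF1 in PC-9 was at -0.0058 with quantile normalization and -0.0098 with array weights, and its difference between tolerant lines was at -0.03 with centred arrays. With 1 array left out SREBF1 ran from -0.15 to 0.16 in H1975, -0.092 to 0.098 in PC-9, -0.15 to 0.15 for the difference and -0.088 to 0.10 between tolerant lines. SCAP ran from -0.23 to 0.033 in H1975 and -0.20 to 0.11 for the difference, STARD4 from -0.42 to 0.15 in H1975, and the differences of SREBF2 and INSIG1 from -0.0067 to 0.27 and -0.045 to 0.35. The causes were not tested.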
